A study of Mus musculus with 8 samples.

Results

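The genes of the nuclear lamina and the membrane proteins that anchor it were followed in sorted tumor-infiltrating lymphocytes (TILs) with and without LSD1. They are 7 of the 55335 genes in the count table, taken by symbol: the lamins *Lmna*, *Lmnb1* and *Lmnb2*, the lamin B receptor *Lbr*, emerin *Emd*, and the SUN proteins *Sun1* and *Sun2*. This group was chosen from an earlier comparison of KO and WT on these same data, so the KO and WT values of its members are given as a description, with no p-values, and support nothing. All 7 passed the filter on low counts, which left 15378 genes tested.

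RNA-seq was done on 4 WT and 4 KO samples of CD45.2+TCRβ+CD8+CD44+PD-1+ TILs from MC38 tumors, a colon carcinoma line implanted under the skin of C57BL/6 mice. WT mice were Lsd1f/f, with both floxed alleles intact, and KO mice were Cd4-Cre+Lsd1f/f. Cd4-Cre is active in developing T cells, so CD4+ T cells of these mice lack LSD1 as well as CD8+ T cells. A WT sample held the cells of 2 mice and a KO sample those of 1 mouse, with 10000 to 20000 sorted cells in each, and the tumor age is 18 days in the protocol but 14 days in the series' design text. The number of pooled mice thus differs with the genotype and cannot be told apart from it in the spread of the groups. The deposited table names its columns Sample 1 to 8, of which the WT columns are called S1 to S4 here and the KO columns S5 to S8.

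The nuclear lamina is a meshwork of intermediate filaments under the inner nuclear membrane. B-type lamins, made from *Lmnb1* and *Lmnb2*, are found in nearly all cells, whereas the A-type lamins A and C, splice forms of *Lmna*, vary among tissues, tend to be low in resting lymphocytes and stiffen the nucleus. The lamin B receptor and emerin tie the lamina to the membrane and to chromatin, and SUN proteins span the inner membrane and join nesprins of the outer membrane, forming the LINC complex that couples the nucleus to the cytoskeleton.

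To show sequence at a start of an A-type and of a B-type lamin gene, the 250 bases before a RefSeq start of *Lmna* (chr3:88503353-88503602, minus strand) and of *Lmnb2* (chr10:80918246-80918495, minus strand) are printed 5′ to 3′ on GRCm38.p6. Where the promoter table held 2 starts of a gene, the most upstream was taken as its main start. The span of *Lmna* in GENCODE reaches further upstream, to 88509956, and no window at that end was used. Capitals mark matches to the SP/KLF motif GGGCGG on either strand.
Lmna: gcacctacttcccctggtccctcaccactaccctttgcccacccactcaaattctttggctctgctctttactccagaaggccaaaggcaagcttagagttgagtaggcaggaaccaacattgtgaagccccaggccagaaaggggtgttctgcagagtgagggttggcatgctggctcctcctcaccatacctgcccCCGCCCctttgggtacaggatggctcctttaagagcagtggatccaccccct
Lmnb2: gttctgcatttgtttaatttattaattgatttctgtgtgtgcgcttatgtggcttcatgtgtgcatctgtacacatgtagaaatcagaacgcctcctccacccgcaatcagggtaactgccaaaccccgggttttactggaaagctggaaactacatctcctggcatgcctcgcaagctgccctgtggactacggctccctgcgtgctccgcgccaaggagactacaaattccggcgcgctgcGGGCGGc

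In windows from 250 bases before to 50 bases after the start, *Lmna* held 1 CpG dinucleotide and *Lmnb2* held 24. The median of all 32851 RefSeq promoter windows was 7 CpG, and 5.43% of windows had fewer than the *Lmna* window. Among the main starts of the members in the promoter table, the *Lmna* window was thus the poorest in CpG. *Emd* held 15, *Sun1* 36, *Sun2* 39 and *Lbr* 42. The upstream end of the *Lmna* span in GENCODE, at 88509956, has no window here, so the CpG content there is not given. No window was used for *Lmnb1*. *Lmna* has a further start in the table with 7 CpG, *Lmnb2* one with 6 and *Sun1* one with 4.

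The SP/KLF letters occurred in 35.7% of all windows and in the main window of all 6 members with a window, 1 time in *Lmna*, at base -52 from the start, and 5 times in *Sun2*. The AP-1 letters TGANTCA occurred in 7.81% of windows and were found 1 time in *Lmna*, at base 40 counted from 1 at the start, and 1 time in *Lbr*. The TCF/LEF letters CTTTGA occurred in 16% of windows and were found in *Emd* and at the further start of *Sun1*. Both strands were searched, and no matches overlapped except that 2 neighboring SP/KLF matches of *Sun2* share a base. A match only describes the letters.

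*Lmna* is on chromosome 3 of GRCm38, from 88480147 to 88509956 (ENSMUSG00000028063.15), and its counts pool the transcripts of lamins A and C. In counts scaled to a common library size with TMM factors (CPM), it was at 20.7, 17.6, 14.4 and 21.1 in the WT samples and at 103, 145, 133 and 93.6 in the KO samples. The groups were far apart, and the lowest KO value was 4.43-fold the highest WT value. WT cells averaged 18.4 ± 3.14 CPM and KO cells 118 ± 24.3 CPM (SD, n = 4 each), 6.42-fold apart, with a log2 fold change of 2.68 (SE 0.17). The raw counts behind these values were 176 to 356 in WT samples and 1564 to 2660 in KO samples, so no level rested on few reads. Of the 15378 genes tested, 113 had a higher log2 fold change.

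A gene was called where its fold change exceeded 1.5 and edgeR's quasi-likelihood test, with Benjamini-Hochberg adjustment over all genes, gave an adjusted p below 0.01. Of the members, 1 met this rule, *Lmna*. Over all genes tested, 4.9% were called, 2.91% as higher and 1.99% as lower in KO. The groups did not overlap in 2 members, *Lmna* and *Emd*, against 17.3% of all genes. The members were selected on this contrast, so these counts are no test of them and nothing is read from them. The log2 fold change was below 0 in 6 of the 7 members. Of these, *Lmnb1*, *Sun1* and *Sun2* turned to 0.01, 0.05 and 0.01 with GC content offsets. With a sample left out, *Lmnb1* reached up to 0.04 and *Sun1* up to 0.03. The members' median was -0.04, against -0.01 over all genes tested.

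**Figure D1:**
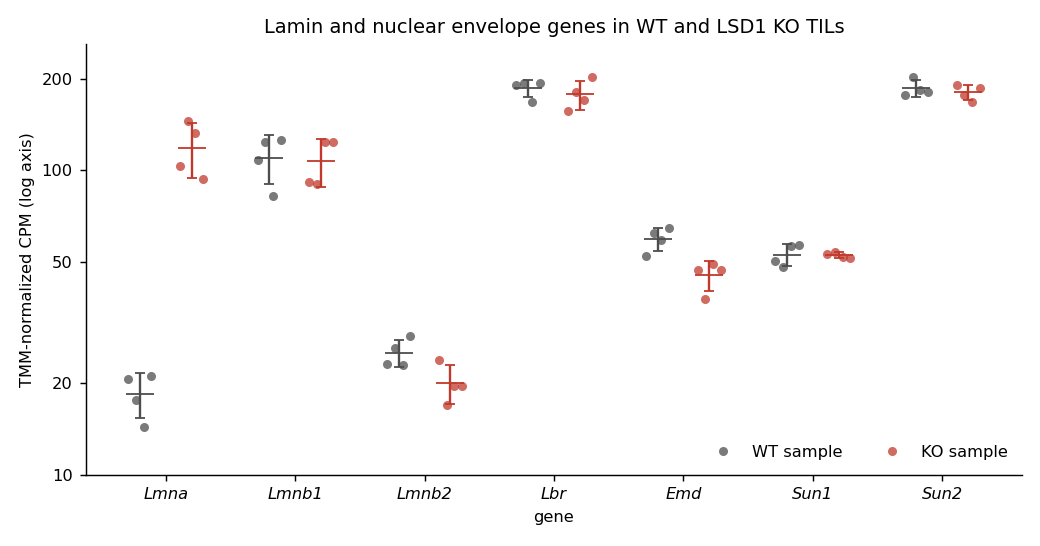
TMM-normalized CPM (log axis) of the 7 genes in each sample, with WT in gray and KO in red; bars give the mean ± SD of 4 samples. WT samples held 14.4 to 21.1 CPM of *Lmna* and KO samples 93.6 to 145 CPM. *Emd* was the other gene whose groups did not overlap, with 52.5 to 64.5 CPM in WT samples and 37.7 to 49.2 CPM in KO samples.

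The B-type lamins overlapped between the groups. *Lmnb1* (ENSMUSG00000024590.8) was at 108, 124, 82.4 and 126 CPM in the WT samples and at 91.6, 90.2, 124 and 124 CPM in the KO samples. The groups overlapped over most of their range, with means of 110 ± 20 and 108 ± 19.2 CPM (SD, n = 4 each) and a log2 fold change of -0.03 (SE 0.15). *Lmnb2* (ENSMUSG00000062075.13, chromosome 10 from 80901203 to 80918245) was at 23.2, 26, 22.9 and 28.5 CPM in WT and at 23.9, 16.9, 19.6 and 19.6 CPM in KO samples. S5 was the 1 KO sample within the WT range, and the other 3 were below it. The means were 25.2 ± 2.62 and 20 ± 2.9 CPM (SD, n = 4 each), a log2 fold change of -0.33 (SE 0.17).

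Among the proteins that hold the lamina at the membrane, the groups of *Emd* did not overlap and those of *Lbr* did. *Emd* (ENSMUSG00000001964.14, chromosome X from 74254687 to 74261548) encodes emerin, a LEM-domain protein that binds lamins and the chromatin protein BAF. It was at 52.5, 62.4, 59.2 and 64.5 CPM in the WT samples and at 47.2, 37.7, 49.2 and 47.1 CPM in the KO samples. The KO samples lay under the WT range, although the nearest ones, S7 and S1, were close. The means were 59.6 ± 5.23 and 45.3 ± 5.15 CPM (SD, n = 4 each), a log2 fold change of -0.39 (SE 0.13), which is under the fold change threshold.

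*Lbr* (ENSMUSG00000004880.11, chromosome 1 from 181815335 to 181843046) encodes a receptor that binds B-type lamins and heterochromatin and also acts in sterol synthesis. Its values were 190, 193, 168 and 194 CPM in WT and 157, 181, 170 and 203 CPM in KO samples. KO samples lay on both sides of the WT range, with a log2 fold change of -0.06 (SE 0.10).

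*Sun2* and *Sun1*, the inner membrane part of the LINC complex, did not separate the groups. *Sun1* (ENSMUSG00000036817.14, chromosome 5 from 139200637 to 139249840) was at 50.3, 48, 56.3 and 57 CPM in WT and at 53.2, 54, 52 and 51.4 CPM in KO samples. All KO values lay inside the WT range, and the log2 fold change was -0.01 (SE 0.12). *Sun2* (ENSMUSG00000042524.14, chromosome 15 from 79724070 to 79742536) was at 177, 203, 184 and 181 CPM in WT and at 191, 177, 168 and 186 CPM in KO samples. Its groups overlapped too, with a log2 fold change of -0.04 (SE 0.09). An antisense gene that overlaps *Sun2*, Gm16575, held 2.084% as many counts, and whether reads were counted by strand is not given in the sources used here. Genes overlapping *Lbr* held at most 0.215% of its counts, and no annotated gene overlapped the lamin genes.

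Levels of different genes were compared per length, as CPM per kilobase of exon (RPKM). In WT cells the order was *Lbr* at 39.1 ± 2.61, *Lmnb1* at 37.1 ± 6.75, *Sun2* at 34.3 ± 2.13, *Emd* at 23.7 ± 2.08, *Sun1* at 6.96 ± 0.586, *Lmnb2* at 5.87 ± 0.61 and *Lmna* at 3.16 ± 0.538 RPKM (SD, n = 4). *Lbr*, *Lmnb1* and *Sun2* overlapped with their neighbors in this order, as did *Sun1* and *Lmnb2*, whereas all 4 WT samples had less *Lmna* than *Lmnb2*. In KO cells *Lmna* ranked 4 of 7, at 20.3 ± 4.16 RPKM (SD, n = 4), next to *Emd* at 18 ± 2.05 RPKM (SD, n = 4). These neighbors overlapped, and *Lmna* was above *Emd* in 2 of 4 KO samples. Without S6, the sample with the most *Lmna*, it was at 18.7 RPKM and ranked 5.

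The makeup of lamin RNA thus differed between the groups. *Lmna* made up 7.79%, 5.93%, 6.9% and 6.86% of the summed lamin RPKM in the WT samples and 32.5%, 41.9%, 32.9% and 25.6% in the KO samples. Its mean share was 6.87% ± 0.761 (SD, n = 4) in WT and 33.2% ± 6.67 (SD, n = 4) in KO cells, and the groups did not overlap. Per merged exon length, *Lmnb1* remained the most abundant lamin RNA in every sample, with a mean share of 80.3% in WT and 59% in KO cells. *Lmnb2* went from 12.9% to 7.72%. With the length of the longest transcript, *Lmna* made up 40.8% of lamin RNA in KO cells, and the mean of *Lmnb1* still ranked above it. The order in single samples was not compared with that length. In CPM, which is not corrected for length, *Lmna* was above *Lmnb1* in S5, S6 and S7, at 103, 145 and 133 against 91.6, 90.2 and 124. Since shares add up to the whole, the lower shares of the B-type lamins do not mean lower levels: *Lmnb1* and *Lmnb2* together were at 43 ± 7.26 RPKM in WT and 41 ± 6.42 RPKM in KO cells (SD, n = 4 each). The ratio of A-type to B-type lamin RNA was 0.0738 ± 0.00877 in WT and 0.509 ± 0.156 in KO cells (SD, n = 4 each), 6.9-fold apart. By contrast, the ratio of *Sun2* to *Sun1* was 4.97 ± 0.667 in WT and 4.81 ± 0.291 in KO cells (SD, n = 4 each).

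**Figure D2:**
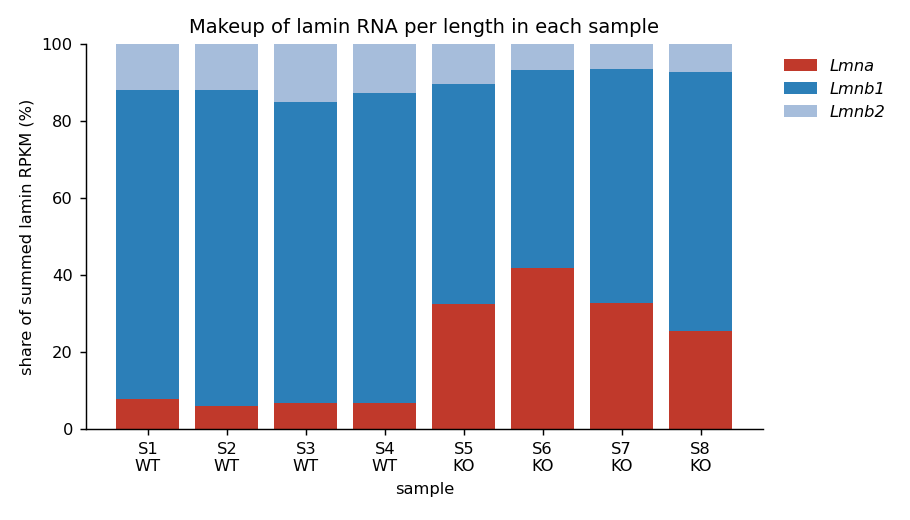
Share of the 3 lamin genes in their summed RPKM (y axis, percent) in each sample. *Lmna* took 5.93% to 7.79% in the 4 WT samples and 25.6% to 41.9% in the 4 KO samples.

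The proteins around the members were followed in gene lists. These lists were chosen with earlier results of these data known. Their counts and the adjusted p values of their genes are therefore a description and no test of the lists. In 6 lists of other nuclear envelope genes, 2 of 66 tested genes were called higher in KO and none lower by edgeR's quasi-likelihood test, which is 3.03%, against 4.9% of all genes called in either direction and 2.91% called higher. The median log2 fold change over these lists was 0. Both were nesprins, the outer membrane partners of SUN proteins. *Syne2*, which encodes the giant actin-binding nesprin-2, was at 35.2, 33.7, 23.7 and 29.9 CPM in WT and at 56.3, 68.7, 67.7 and 63.4 CPM in KO samples. All KO samples were above all WT samples, with a log2 fold change of 1.06 (SE 0.14, adjusted p = 0.000108 from edgeR). *Syne3*, which encodes nesprin-3, the nesprin that binds plectin, was at 59.8, 59.6, 61.8 and 70.4 CPM in WT and at 107, 97.9, 98.2 and 104 CPM in KO samples. Its groups did not overlap either, and the log2 fold change was 0.70 (SE 0.10, adjusted p = 0.000281 from edgeR). *Syne1*, which encodes nesprin-1, was not called, at 76.9 ± 14.8 and 96.5 ± 15 CPM (SD, n = 4 each). The other 6 genes of this list of 9, which holds torsins and their cofactors, *Syne4* and *Lrmp*, were not called.

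The remaining envelope lists held no called gene. Among 6 LEM-domain genes and BAF, *Banf1*, which encodes BAF, had the largest log2 fold change, -0.54 (SE 0.17, adjusted p = 0.0482 from edgeR). The 5 enzymes that farnesylate, cleave and methylate prelamin A and the B-type lamins ranged up to *Fntb*, the beta subunit of farnesyltransferase, at 0.30 (SE 0.35, adjusted p = 0.673 from edgeR). *Zmpste24*, the protease that matures prelamin A, was at 53.9 ± 8.1 CPM in WT and 50.2 ± 7.15 CPM in KO cells (SD, n = 4 each). Of 6 other inner nuclear membrane genes, *Nemp1* was at 0.43 (SE 0.17, adjusted p = 0.116 from edgeR). Among 29 nuclear pore genes, *Nup43* was at -1.39 (SE 0.53, adjusted p = 0.106 from edgeR), at 5.29 ± 1.77 CPM in WT and 2 ± 1.08 CPM in KO cells (SD, n = 4 each). Among 11 ESCRT genes that seal the envelope, *Vps4a*, an ATPase, was at -0.28 (SE 0.16, adjusted p = 0.295 from edgeR).

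Of 9 genes for heterochromatin proteins that sit at the lamina and the enzymes that modify it, none was called, and *Suv39h2*, a histone H3 lysine 9 methyltransferase, was at -0.37 (SE 0.34, adjusted p = 0.561 from edgeR). Of 16 proliferation genes none was called, and *Cdk1* was at -0.48 (SE 0.21, adjusted p = 0.171 from edgeR). The summed proliferation CPM was 1540 to 2040 in WT samples and 1340 to 1710 in KO samples, so the ranges overlapped.

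**Figure D3:**
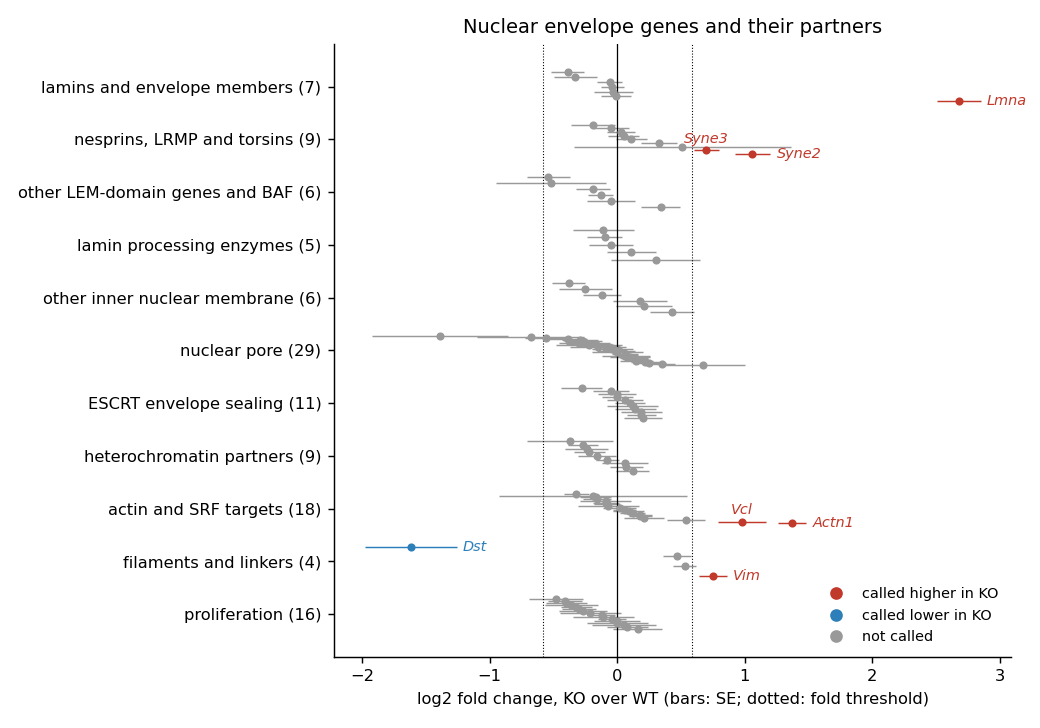
Log2 fold change of KO over WT (x axis) with its SE for each tested gene of the lists (y axis, number of genes tested in parentheses); dotted lines mark the fold change of 1.5. Red genes were called higher, blue genes lower and gray genes neither, and *Lmna* at 2.68 lay beyond all other genes plotted.

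The cytoskeletal partners of the LINC complex were followed as well, in lists chosen in the same way and with the same limit. The list of cytoplasmic filaments and linkers held 4 genes, of which 1 was called higher and 1 lower. That is 50% of a small list, against 4.9% of all genes tested. *Vim*, which encodes vimentin, an intermediate filament protein of mesenchymal cells and of lymphocytes, was at 649, 789, 669 and 917 CPM in WT and at 1250, 1140, 1420 and 1280 CPM in KO samples. All KO samples were above all WT samples, with a log2 fold change of 0.75 (SE 0.11, adjusted p = 0.000259 from edgeR). *Plec*, which encodes plectin, the linker between nesprin-3 and intermediate filaments, was at 869, 808, 804 and 732 CPM in WT and at 1220, 1080, 1180 and 1140 CPM in KO samples. Its groups did not overlap and its adjusted p was 0.000644 from edgeR, but its log2 fold change of 0.53 (SE 0.09) was under the fold threshold.

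*Macf1*, an actin and microtubule crosslinker, was at 1650 ± 239 CPM in WT and 2280 ± 278 CPM in KO cells (SD, n = 4 each) and missed both thresholds (log2 fold change 0.47, SE 0.11, adjusted p = 0.0103 from edgeR). *Dst*, which encodes dystonin, was at 14.8, 13.2, 31.3 and 19.1 CPM in WT and at 11.2, 3.56, 3.67 and 6.72 CPM in KO samples. It was called lower, with a log2 fold change of -1.62 (SE 0.36, adjusted p = 0.00622 from edgeR), but the call was lost when any of S3, S4, S6, S7 or S8 was left out, with adjusted p values from edgeR of up to 0.0339.

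Among 18 tested genes of actin and of targets of the actin-regulated factor SRF, 2 were called higher and none lower. That is 11.1%, against 4.9% of all genes tested called in either direction and 2.91% called higher. *Actn1*, which encodes the actin crosslinker alpha-actinin 1, was at 45.1, 46.4, 38.2 and 45.8 CPM in WT and at 117, 112, 115 and 110 CPM in KO samples, a log2 fold change of 1.37 (SE 0.11, adjusted p = 3.53e-07 from edgeR). *Vcl*, which encodes vinculin, an adhesion protein, was at 19.5, 28.4, 18.3 and 27.5 CPM in WT and at 56.6, 43.6, 49.9 and 35.2 CPM in KO samples, a log2 fold change of 0.98 (SE 0.19, adjusted p = 0.00215 from edgeR). In both genes the groups did not overlap. The other 16 genes were not called, with *Srf* itself at 32.5 ± 5.34 and 37.6 ± 5.65 CPM and *Flna*, which encodes filamin A, at 931 ± 34.4 and 1050 ± 110 CPM (SD, n = 4 each). In the 9 lists together 5 genes were called higher and 1 lower of 97 tested, which is 6.19%, against 4.9% of all genes tested, with a median log2 fold change of 0.

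**Figure D4:**
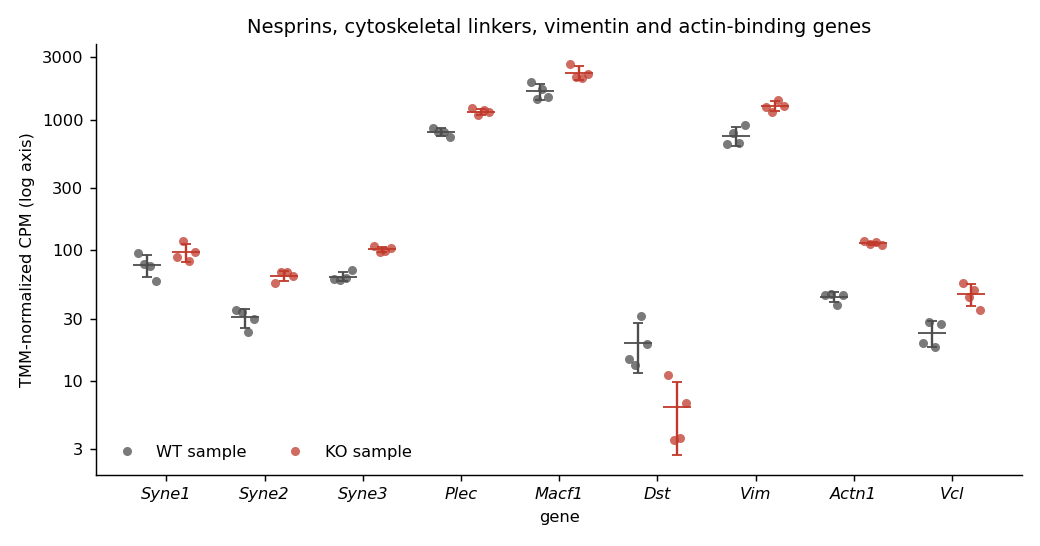
TMM-normalized CPM (log axis) of nesprins, linkers, vimentin and actin-binding genes in each sample, WT in gray and KO in red, with the mean ± SD of 4 samples. *Syne2*, *Syne3*, *Plec*, *Macf1*, *Vim*, *Actn1* and *Vcl* were higher in every KO sample than in every WT sample. *Dst* was lower in every KO sample and *Syne1* overlapped. *Syne1*, *Plec* and *Macf1* were added after their values were seen. Over all 9 lists, the groups did not overlap in 14 of 97 tested genes, against 17.3% of all genes tested.

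The genes whose values were most like those of *Lmna* were found by the root mean square difference of log2 CPM, centered on the WT mean, over all 8 samples. Of 10940 genes with a mean log2 CPM above 2, they were *Sestd1* at a difference of 0.24, *Pacsin1* at 0.283, *Cd101* at 0.298, *Gcnt1* at 0.313 and *Sfmbt2* at 0.326. Their log2 fold changes were 2.42 to 2.64, against 2.68 for *Lmna*. The step between the groups is most of what is compared, since deviations from the WT mean were -0.58 to 0.45 in WT samples and 2.16 to 2.98 in KO samples for all 6 genes.

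**Figure D5:**
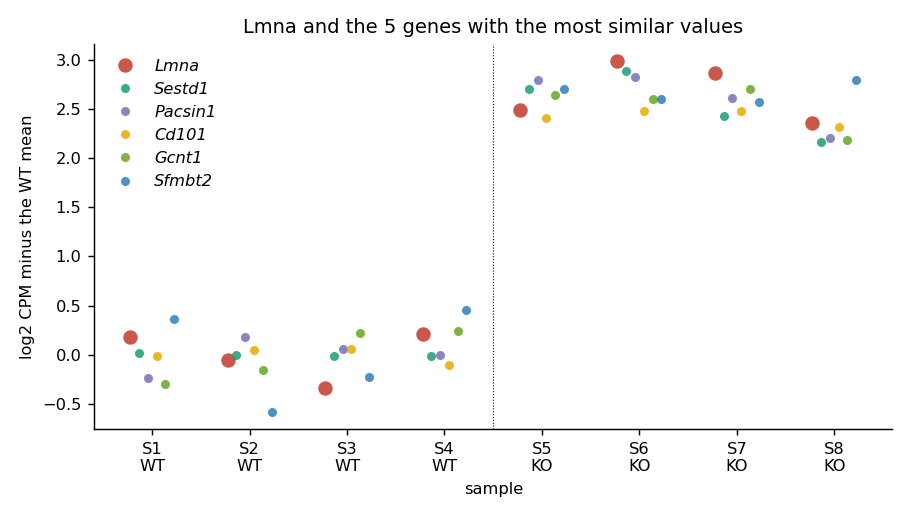
Log2 CPM minus the WT mean (y axis) in each sample for *Lmna* and the 5 genes with the most similar values; points are shifted sideways so that they can be told apart. All 6 genes lay between -0.58 and 0.45 in WT and between 2.16 and 2.98 in KO samples.

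Library totals were 11657807 to 30295406 counts, with TMM factors of 0.94 to 1.046, and 3 counts corresponded to 0.106 to 0.25 CPM. *Kdm1a*, the gene of LSD1, was at 44.9 ± 1.87 CPM in WT and 30.6 ± 4.03 CPM in KO cells (SD, n = 4 each), lower in all KO samples but not called (log2 fold change -0.55, SE 0.14, adjusted p = 0.0163 from edgeR). It overlaps *Luzp1* on the other strand, so its level is uncertain if strand was not used. The study reported a noticeable loss of LSD1 protein in T cells of KO mice, which RNA counts do not measure. T cell markers were present in all samples, with a summed CPM of 4070 to 4680 in WT samples and 3850 to 4670 in KO samples over 9 genes, of which *Cd2* and *Cd44* were called higher and none lower. The other 7 markers had log2 fold changes of -0.39 (*Cd8b1*, adjusted p = 0.0158 from edgeR) to -0.04 (*Trac*), and the list's median was -0.26.

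Some markers of other cell types, most of all myeloid ones, differed between the genotypes. The summed CPM of fibroblast, epithelial, NK cell and neutrophil markers overlapped between the groups. In these bulk samples, fewer cells of a type and less RNA per cell cannot be told apart. Of 13 myeloid markers, 11 were called lower in KO and none higher, against 1.99% of all genes tested called lower. Their summed CPM was 301 to 840 in WT samples and 58.9 to 101 in KO samples. Among WT samples, S3 had the most myeloid RNA, 840 CPM, and the least *Lmna*, 14.4 CPM, whereas among KO samples S6 had the most of both, 101 and 145 CPM, and S8 the least of both, 58.9 and 93.6 CPM. Leaving out S3 did not remove the myeloid difference, since 9 myeloid markers were still called lower. Without S3 the log2 fold changes were 2.58 for *Lmna*, 0.70 for *Vim*, 1.31 for *Actn1*, 0.96 for *Syne2* and 0.69 for *Syne3*. *Dst* was highest in S3 and had a log2 fold change of -1.30 without it. The part of myeloid RNA in any of these results was not tested.

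Fibroblast markers, cells rich in lamin A, summed to 1.32 to 6.28 CPM in WT and 0.584 to 3.31 CPM in KO samples over 8 genes, and 2 of these were at 0 in all samples. Of 6 epithelial and tumor markers, *Krt8* and *Krt19* were at 0 in all samples, and the sum of 14.1 to 30.1 CPM in WT and 21 to 32.5 CPM in KO samples was mostly *Cdh1*. Endothelial markers summed to 20.5 to 26.8 CPM in WT and 56.2 to 77.6 CPM in KO samples, nearly all of it *Pecam1*, which was called higher, whereas the other 5 markers each had a median under 1 CPM. The 5 B cell markers summed to 46.9 to 81.7 CPM in WT and 16.1 to 44.6 CPM in KO samples. Most of this was *Ighm*, which was called lower. *Cd79a* was higher in every KO sample but not called, with means of 0.303 CPM in WT and 2.07 CPM in KO cells. The 5 NK cell markers summed to 1.73 to 3.43 CPM in WT and 2.53 to 7.35 CPM in KO samples. Among them *Klrb1c* was higher in every KO sample but not called, with means of 0.459 CPM in WT and 3.86 CPM in KO cells. The 5 neutrophil markers summed to 0.523 to 6.12 CPM in WT and 0 to 1.37 CPM in KO samples.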

How the data were processed

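RNA of sorted CD8+CD44+PD-1+ TILs was sequenced from 4 WT and 4 KO samples as rRNA-depleted, directional libraries. Per the submitters' processing notes the authors used STAR, featureCounts and DESeq2 on GRCm38, and the deposited values are raw counts per gene, without normalization. The columns carry no genotype and were assigned to WT (S1 to S4) and KO (S5 to S8) from the sample key of the study's supplement; they could not be tied to replicate numbers.

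The members and gene lists were chosen with earlier results of these data known. Counts were filtered with filterByExpr, scaled with TMM factors and tested with edgeR 4.0.16 (glmQLFit, glmQLFTest) in R 4.3.3, without covariates, over all 15378 genes. The SE of a log2 fold change is its size divided by the root of its F statistic. A p-value sets the difference between the groups against the spread between samples. That spread is not the spread between mice, since WT samples pool 2 mice and KO samples hold 1. The fit was tested on data simulated from the model that it assumes, so the test cannot show how it does where that model fails. Signs and the median fold size were recovered. A large part of 2-fold changes was not called, and a first criterion on the number called was missed there and dropped. A gene that was not called may thus still differ.

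RPKM used the merged exon length of GENCODE M21, which matched 55154 of 55335 gene IDs, and TMM-scaled library sizes. log2 CPM had a prior count of 2. The text names all members and, from each list, called genes up to 4 per direction, or the gene with the largest log2 fold change where none was called, and *Kdm1a*; other list genes (*Syne1*, *Plec*, *Macf1*, *Zmpste24*, *Srf*, *Flna*) were named after their values were seen. *Nup58* matched no row and *Myl9* fell under the filter. Promoter windows are RefSeq's, on GRCm38.p6. Alternatives were other scaling, filters, DESeq2 1.42.0, GC content offsets (mgcv 1.9.3), an adjusted p of 0.05, transcript length and leaving out each sample. Totals of 11657807 to 30295406 counts set the precision, and the floor of 3 counts covers counting error only.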

Additional observations from a re-analysis of the deposited data

Results flagged for a closer look

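Within the groups of 4 samples, the lowest or highest sample was compared with the others by its gap to the nearest sample over the range of the group, on log2 CPM for the members, *Kdm1a* and the named list genes, and in percent for the *Lmna* share. The ratio passed Dixon's critical value in 4 of 44 groups, and chance alone passes about 1 in 20, or 2.2 of 44.

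*Lbr* was low in the WT sample S3, with 7.39 on the log2 CPM scale where its group otherwise lay at 7.57 to 7.6 (ratio 0.873). *Emd* was low in the KO sample S6, at 5.24 against 5.56 to 5.63 (ratio 0.835). *Nup43* was low in the KO sample S5, at -0.95 against 1.3 to 1.48 (ratio 0.926). *Actn1* was low in the WT sample S3, at 5.26 against 5.5 to 5.54 (ratio 0.856). No sample stood apart in *Lmna* or in its share of the lamins.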

How the results depend on the processing

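The log2 fold change of *Lmna* was 2.57 to 2.78 under the 16 alternatives, a description of a gene selected on this contrast. The 5 list genes called higher in KO stayed above both thresholds under all 16, whereas the count of list genes called lower, 1, went to 0 to 1 with a sample left out. Called genes over all genes were 642 higher and 531 lower without a filter on low counts, 617 and 461 with DESeq2, and 695 and 551 at an adjusted p of 0.05, against 447 and 306. With a sample left out they were 347 to 452 higher and 199 to 303 lower, with 199 lower without S2. With the length of the longest transcript, *Lmna* was at 4.67 RPKM in WT and 30 RPKM in KO cells, and made up 9.29% and 40.8% of the lamins, since its merged exons are longer than its longest transcript. The median log2 fold change of all genes was -0.037 to 0.004 under the scaling and GC alternatives. No paired analysis was possible because the columns could not be tied to the replicate numbers of the labels. The depth of 11657807 to 30295406 counts left every member with at least 176 counts per sample.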
